A study of Mus musculus with 10 samples.

Results

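The genes described here encode the contractile apparatus of heart muscle, and 34 were followed out of 54532 genes in the count table. They were taken by gene name and sorted by where their product sits, with 8 in the thick filament, 7 in the thin filament, 4 in titin and the M-band, 13 at the Z-disc and 2 at the intercalated disc. Their levels were compared between hearts of 8-week-old C57BL/6 mice injected with saline and hearts taken 24 h after LPS, a lipopolysaccharide from bacterial outer membranes that is used as a model of sepsis. The labels give 5 RNA-seq libraries per group, numbered within each group, and the series concerns the loss of heart function in sepsis. No allele or further agent is named for either group. The sources used here give no sex, LPS dose, route or batch, and nothing states whether each library came from 1 animal, so p-values measure the spread between these libraries. The tissue was whole heart, so all cell types of the heart were measured together. In such bulk samples fewer cells of a type and less RNA per cell cannot be told apart.

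The sarcomere is the repeating unit of striated muscle. Thick filaments of myosin pull on thin filaments of actin, calcium binding to the troponin complex on the thin filament switches the pull on, and the giant protein titin ties the thick filament to the Z-disc on 1 side and the M-band on the other. The Z-disc anchors thin filaments and holds many proteins that sense stretch, and the intercalated disc joins the ends of neighbouring cardiomyocytes. Heart muscle cells are few among the cells of the heart but hold much of its RNA, so contractile transcripts are among the most abundant in the tissue.

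The total count was between 14607969 and 17012372 reads per library. Cardiomyocyte markers, a list chosen with earlier results of these data known, were all tested (14 of 14). Their summed level was 25988 to 30149 CPM (each count divided by the TMM-scaled library size and given per 1000000 reads) in saline and 28619 to 32493 CPM in LPS libraries. Atp2a2, the calcium pump of the sarcoplasmic reticulum, rose from 11336 ± 1109 to 13778 ± 643 CPM (mean ± SD, n = 5 per group), and Mb, myoglobin, was at 5381 ± 365 and 5556 ± 1339.8 CPM. Scaled by total count alone, Atp2a2 differed by 0.01 on the log2 scale and was not called. Of 14 markers of skeletal muscle, 3 had enough reads to be tested and none passed by edgeR, DESeq2 or limma voom or at an unadjusted p under 0.05. Their summed level was 31.1 to 40.5 CPM in saline and 31.2 to 50.7 CPM in LPS libraries, and Myh4 and Tnnc2 had 0 reads in every library. Myl1 was the most abundant of them at 22.8 ± 3.65 and 25.6 ± 7.31 CPM, followed by Cacna1s at 8.28 ± 1.74 and 8.38 ± 1.83 CPM. All 10 endothelial markers fell, with a median log2 fold change of −1.10, and their sum was 1393 to 2417 CPM in saline and 845 to 1058 CPM in LPS libraries. The part of cell composition in the values below was not tested.

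Most sarcomere and Z-disc genes did not pass the test. By edgeR's quasi-likelihood test with Benjamini-Hochberg adjustment over 13864 tested genes and a threshold of 0.05, 4 of 34 members rose (Xirp1, Pdlim5, Mybpc3 and Smyd1), 1 fell (Synpo2l) and 29 did not pass. Over all tested genes 39.9% were called, 18.9% upward and 21% downward, against 14.7% of the members. Of the 14 cardiomyocyte markers, 2 rose and 12 did not pass (14.3% called, median log2 fold change 0.13), a share near that of members. At a mean of at least 100 CPM, 4 of 29 members were called and 39% of 1420 genes. The members' median log2 fold change was 0.12 against −0.02 over all tested genes, and the median of its size without sign was 0.14 against 0.32. Groups did not overlap in 2 members, Xirp1 and Pdlim5, and in 28.4% of all tested genes. These counts describe the members, which were chosen with earlier results known, and no test compares them with other genes.

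**Figure D1:**
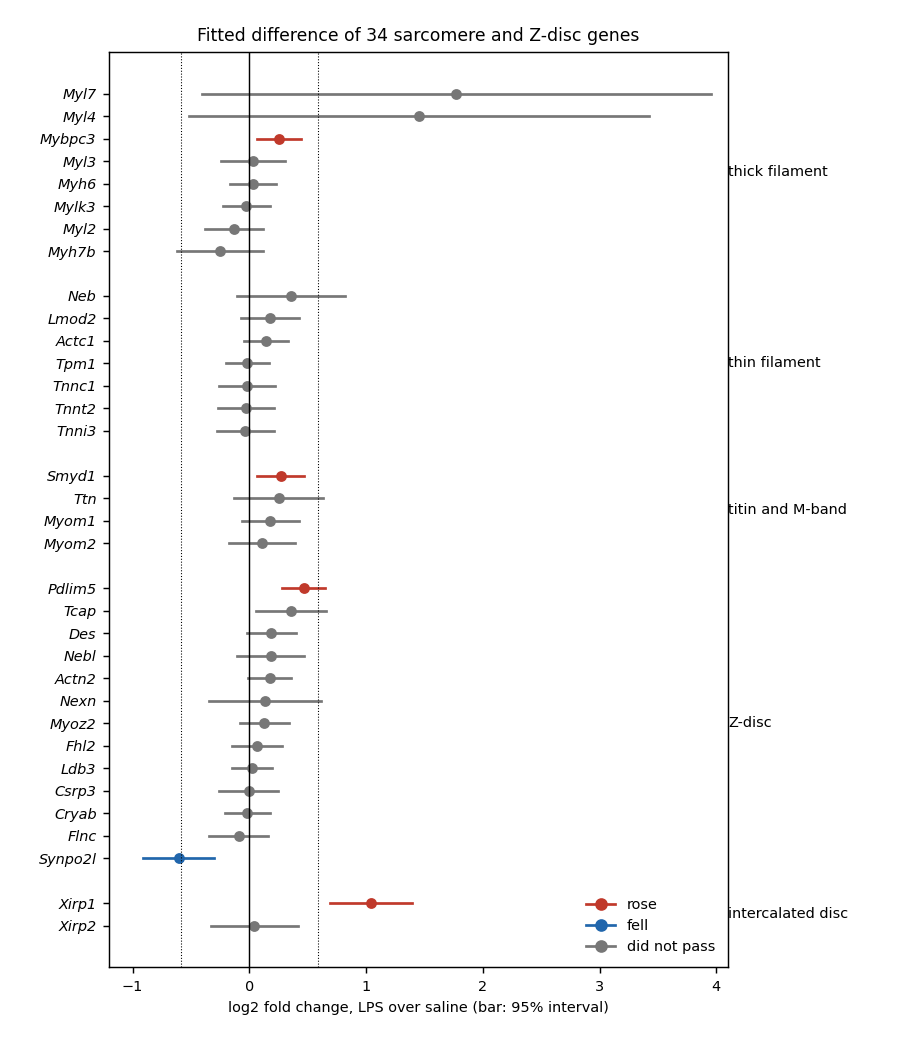
Fitted log2 fold change (LPS over saline) of the 34 members with its 95% interval, ordered within each place, red for genes that rose, blue for the gene that fell and grey for those that did not pass. Dotted lines mark a 1.5-fold difference, and 30 of 34 estimates lie between them.

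Within the TMM fit, the precision allowed bounds on most of the members that did not pass. Of those 29, 22 had a 95% interval within a 1.5-fold difference in either direction, and the other 7 (Myh7b, Myl4, Myl7, Neb, Ttn, Tcap and Nexn) had an interval that reached it. These intervals leave out the uncertainty of the scaling. Among the 22, Myl2 and Flnc had log2 fold changes of −0.41 ± 0.12 SE and −0.36 ± 0.14 SE when scaled by total count alone. The spread between libraries was 12.7% (median coefficient of variation over members) in saline and 12.6% in LPS libraries.

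The direction of small differences depended on the scaling. The members took 7.68% ± 0.310 of all counts in saline libraries (7.21% to 8.06%) and 6.61% ± 0.358 in LPS libraries (6.30% to 7.14%), with no overlap between the groups. The TMM factors, which correct for a few genes that take a larger share of the reads, were 1.10 ± 0.0600 and 0.911 ± 0.0553. After that correction the members summed to 69915 ± 5038 CPM in saline and 72589 ± 2941 CPM in LPS libraries, which overlap. Scaled by total count alone, the median of all tested genes moved by −0.27 on the log2 scale, 1 member rose (Xirp1) and 12 fell, where 53.9% of all tested genes were called, 12.3% upward and 41.6% downward. The 12 were Myh6, Myl2, Mylk3 and Myh7b of the thick filament, Tnnt2, Tnni3, Tnnc1 and Tpm1 of the thin filament, and Ldb3, Cryab, Flnc and Synpo2l of the Z-disc, with none in titin and the M-band. By total count the members' median was −0.15 against −0.30 over all tested genes. The share of all calls that were upward was 47.3% by TMM, 50.7% by RLE, 31.1% by upper quartile, 22.9% by total count and 29.9% when scaled to the cardiomyocyte markers.

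**Figure D2:**
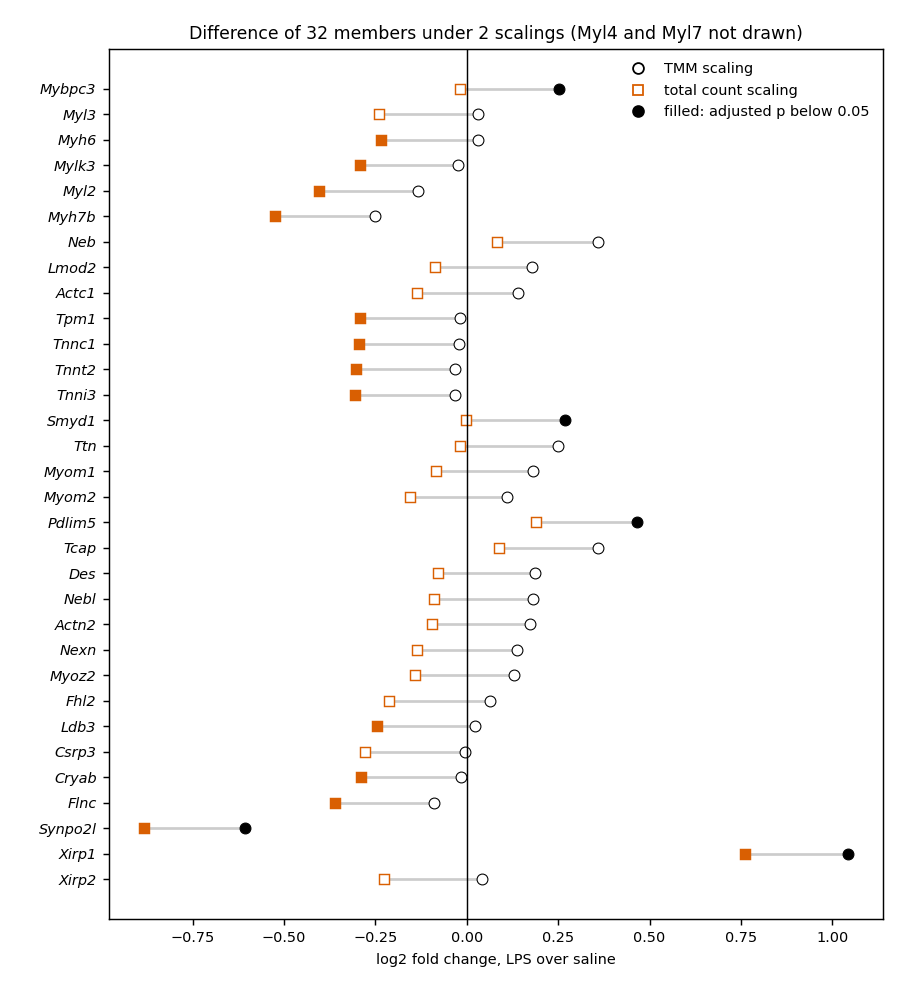
Log2 fold change (LPS over saline) of 32 members under TMM scaling (circles) and total count scaling (squares), filled where the adjusted p was below 0.05. By total count 12 members fell, and 17 of all 34 members had another sign than by TMM.

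Promoter windows of members and of other genes were compared by the motifs they hold. RefSeq windows of 250 bases before to 50 bases after the start site (GRCm38.p6) were matched to 28 of 34 members by symbol, and both strands were searched for the binding motifs of MEF2 and of serum response factor (the CArG box), which are known regulators of contractile genes, for the E-box CANNTG and for TATAAA. A MEF2 motif lay in 6 of 28 members (21.4%: Fhl2, Mybpc3, Myoz2, Synpo2l, Ttn and Xirp2) against 2.45% of 10232 tested genes with a window and 3.70% of 27025 genes. A CArG box lay in 7 of 28 (25.0%: Actc1, Fhl2, Ldb3, Myl3, Myl7, Myom1 and Nebl) against 1.64% and 1.81%. The E-box was found in 85.7% of members and 67.8% of tested genes, and TATAAA in 21.4% and 9.29%. A match is a description of these letters and not of binding, and of the 4 called members with a window 2 held a MEF2 motif and none a CArG box. The windows of the called members Mybpc3, Smyd1 and Synpo2l are shown with that of Xirp2, the family partner of Xirp1, and with that of Actc1, which was added after its values were seen as an example of a CArG box. Capitals mark the MEF2 motif in Mybpc3, Synpo2l and Xirp2 and the CArG box in Actc1, and Smyd1 held neither. The start site of the Smyd1 and Actc1 windows differs from the gene end in the count table.
Mybpc3 (chr2:91117894-91118193, plus strand): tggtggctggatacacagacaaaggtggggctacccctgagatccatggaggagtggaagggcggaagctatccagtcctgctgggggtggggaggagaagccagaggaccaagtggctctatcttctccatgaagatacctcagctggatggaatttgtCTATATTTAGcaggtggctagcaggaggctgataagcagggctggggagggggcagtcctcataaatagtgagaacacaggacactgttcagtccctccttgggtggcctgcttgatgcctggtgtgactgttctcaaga
Smyd1 (chr6:71262232-71262531, minus strand): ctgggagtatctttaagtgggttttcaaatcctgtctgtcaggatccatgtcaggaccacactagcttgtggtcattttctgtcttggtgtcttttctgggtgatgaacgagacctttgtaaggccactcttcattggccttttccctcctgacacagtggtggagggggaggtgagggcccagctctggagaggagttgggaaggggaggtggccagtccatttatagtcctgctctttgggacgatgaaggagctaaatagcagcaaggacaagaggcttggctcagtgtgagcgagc
Synpo2l (chr14:20668305-20668604, minus strand): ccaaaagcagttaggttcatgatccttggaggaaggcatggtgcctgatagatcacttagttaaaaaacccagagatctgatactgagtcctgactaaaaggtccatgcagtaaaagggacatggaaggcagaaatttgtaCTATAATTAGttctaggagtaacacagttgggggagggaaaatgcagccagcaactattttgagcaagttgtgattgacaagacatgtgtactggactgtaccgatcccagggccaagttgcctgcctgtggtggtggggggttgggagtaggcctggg
Xirp2 (chr2:67445752-67446051, plus strand): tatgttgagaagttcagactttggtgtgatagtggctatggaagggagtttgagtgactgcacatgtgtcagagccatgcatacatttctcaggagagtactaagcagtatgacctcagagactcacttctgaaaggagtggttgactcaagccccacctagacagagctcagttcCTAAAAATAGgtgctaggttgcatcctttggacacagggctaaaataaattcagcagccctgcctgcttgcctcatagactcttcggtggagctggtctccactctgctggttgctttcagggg
Actc1 (chr2:114052826-114053125, minus strand): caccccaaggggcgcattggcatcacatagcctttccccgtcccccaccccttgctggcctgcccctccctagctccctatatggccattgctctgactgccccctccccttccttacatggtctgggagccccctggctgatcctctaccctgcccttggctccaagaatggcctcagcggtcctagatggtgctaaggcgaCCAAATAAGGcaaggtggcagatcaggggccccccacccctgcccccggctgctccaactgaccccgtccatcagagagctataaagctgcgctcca
The MEF2 motif lay at −90 to −81 from the start site in Mybpc3, at −109 to −100 in Synpo2l (the first of its 2 windows, of which the second also held one) and at −74 to −65 in Xirp2. Of these 3 genes, Mybpc3 rose, Synpo2l fell and Xirp2 did not pass. The CArG box of Actc1 lay at −47 to −38.

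Xirp1 had the largest change among the members called. It encodes the Xin repeat protein 1, which binds actin filaments at the intercalated disc (chromosome 9, 120013755 to 120023598, GRCm38). Its level was 178, 130, 158, 125 and 159 CPM in saline replicates 1 to 5 and 406, 348, 229, 329 and 232 CPM in LPS replicates 1 to 5. Every LPS library lay above every saline library, and LPS replicates 3 and 5 were the lowest of their group. The mean rose from 150 ± 22.2 to 309 ± 76.8 CPM, a log2 fold change of 1.04 ± 0.16 SE (edgeR adjusted p = 0.000226), a 2.06-fold difference with a 95% interval of 1.61 to 2.63. The gene Cx3cr1 overlaps it on the same strand and had 784 reads in all libraries against 34711 for Xirp1.

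Its family partner Xirp2, also an actin-binding protein of the intercalated disc, was at 255, 282, 241, 300 and 340 CPM in saline and 268, 292, 182, 320 and 398 CPM in LPS libraries. The groups overlapped over most of their range, with both the lowest and the highest value in LPS libraries. The fitted log2 fold change was 0.04 ± 0.17 SE (adjusted p = 0.867, 95% interval −0.33 to 0.41). The difference between the changes of both genes was not tested.

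**Figure D3:**
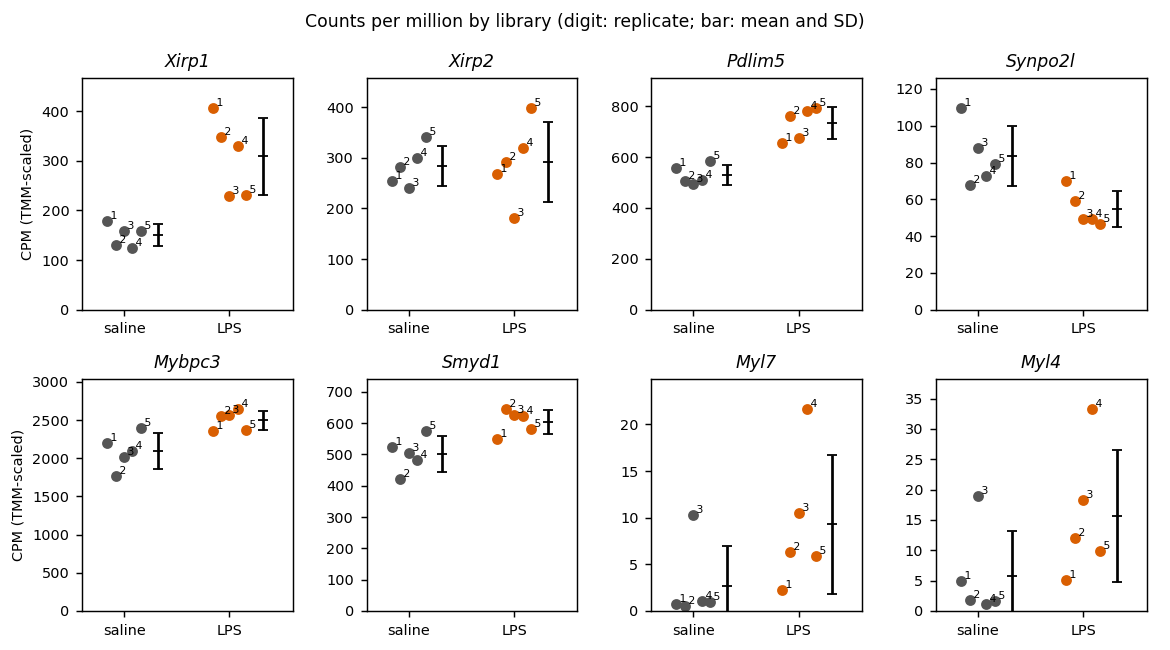
CPM of 8 members in each library, grey for saline and orange for LPS, with the replicate number beside each point and the mean and SD as a bar (the lower end of a bar that falls below 0 is not drawn). Xirp1 and Pdlim5 do not overlap between the groups, and Myl4 and Myl7 vary most within them.

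At the Z-disc 1 of 13 genes rose and 1 fell. Pdlim5, an adaptor with PDZ and LIM domains that binds alpha-actinin, was at 559, 505, 495, 512 and 586 CPM in saline and 656, 763, 675, 780 and 792 CPM in LPS libraries, with no overlap. Its mean rose from 531 ± 39.3 to 733 ± 63.0 CPM, a log2 fold change of 0.46 ± 0.09 SE (edgeR adjusted p = 0.000729), a 1.38-fold difference (95% interval 1.21 to 1.57). It lies on chromosome 3 (142239590 to 142395696, minus strand). By total count scaling its difference was 0.19 and it was not called.

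Synpo2l, an actin-associated protein of the Z-disc related to synaptopodin, was at 110, 68.0, 88.2, 72.7 and 79.2 CPM in saline and 70.1, 59.0, 49.2, 49.6 and 46.4 CPM in LPS libraries. The groups overlapped through LPS replicate 1 and saline replicate 2. Its mean fell from 83.5 ± 16.4 to 54.9 ± 9.77 CPM, a log2 fold change of −0.61 ± 0.14 SE (edgeR adjusted p = 0.00395). Xirp1, Pdlim5 and Synpo2l were called with each of the 10 libraries left out in turn.

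The other Z-disc genes are structural links and stress sensors, and none passed the test. Tcap, telethonin, which caps titin at the Z-disc, came nearest. It was at 691, 608, 812, 886 and 797 CPM in saline and 1235, 946, 1013, 965 and 703 CPM in LPS libraries, so 4 LPS libraries lay above every saline library and LPS replicate 5 among them. Its log2 fold change was 0.36 ± 0.14 SE (edgeR adjusted p = 0.0531), and without LPS replicate 5 it was 0.46 and called (adjusted p = 0.00781). Tcap was also called without saline replicate 4 and by DESeq2, whereas by total count its difference was 0.09.

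The scaffolds that hold thin filaments at the Z-disc had small positive estimates. Actn2, sarcomeric alpha-actinin, was at 1402 ± 127 and 1582 ± 119 CPM (log2 fold change 0.17 ± 0.09 SE, adjusted p = 0.129). Nebl, nebulette, a cardiac relative of nebulin, differed by 0.18 (95% interval −0.11 to 0.47) and Myoz2, a calsarcin that binds calcineurin, by 0.13 (−0.08 to 0.34). Des, desmin, the intermediate filament that links Z-discs side by side, was at 1224 ± 146 and 1394 ± 125 CPM (log2 fold change 0.19 ± 0.10 SE, adjusted p = 0.150). Under total count scaling the estimates of these 4 genes were below 0, and none was called under either scaling.

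Nearest to 0 were Csrp3, muscle LIM protein (log2 fold change −0.01, 95% interval −0.26 to 0.25), Cryab, a small heat shock protein that guards desmin and titin (−0.02, −0.21 to 0.18), and Ldb3, also called cypher or ZASP (0.02, −0.15 to 0.20). By total count scaling Cryab and Ldb3 were below 0 and called, with −0.25 for Ldb3. Fhl2, a LIM protein that binds titin, differed by 0.06 (−0.15 to 0.28). Flnc, filamin C, an actin crosslinker, differed by −0.09 (−0.34 to 0.16), and Nexn, nexilin, by 0.14 with the widest interval at the Z-disc (−0.34 to 0.62). Nexn ranged from 343 to 618 CPM in saline and from 318 to 677 CPM in LPS libraries.

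In the thick filament 1 of 8 genes rose. Mybpc3, cardiac myosin binding protein C, which lies along the thick filament and regulates cross-bridges, was at 2203, 1771, 2014, 2096 and 2400 CPM in saline and 2357, 2557, 2568, 2638 and 2375 CPM in LPS libraries. Saline replicate 5 lay among the LPS libraries and the other 4 saline libraries lay below them. Its mean rose from 2097 ± 232 to 2499 ± 125 CPM, a log2 fold change of 0.25 ± 0.09 SE (edgeR adjusted p = 0.0331). Leaving out saline replicate 2, 3 or 4 ended the call (highest adjusted p = 0.0854), and by total count scaling the difference was −0.02.

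Myh6, the alpha myosin heavy chain and main motor of the adult mouse ventricle, was the most abundant member by CPM. It was at 17490, 14045, 14633, 15658 and 19084 CPM in saline and 15906, 15675, 16348, 16032 and 18726 CPM in LPS libraries. All LPS libraries lay within the range of the saline libraries. The log2 fold change was 0.03 (95% interval −0.17 to 0.23), whereas by total count scaling it was −0.23 and called. Myh7, the beta heavy chain that is the slow and fetal form in mouse, was read beside it and stood at 0.312% ± 0.0599 of Myh6 in saline and 0.268% ± 0.0229 in LPS libraries (ratio of the authors' FPKM, which are per length), with no call (log2 fold change −0.21, adjusted p = 0.434). Myh7b, a related slow heavy chain, was low at 28.5 ± 3.56 and 24.0 ± 6.51 CPM (−0.25, adjusted p = 0.271). These values for Myh7 and Myh7b are by TMM scaling. By total count scaling Myh7 (−0.46) and Myh7b (−0.52) were below 0 and called, as Myh6 was.

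The ventricular light chains and the light chain kinase did not pass. Myl2, the regulatory light chain of the ventricle, was at 4790, 5302, 4990, 5707 and 5126 CPM in saline and 5752, 4364, 4956, 5127 and 3442 CPM in LPS libraries, with LPS replicate 5 the lowest of all (log2 fold change −0.13 ± 0.12 SE, adjusted p = 0.400). Myl3, the essential light chain of the ventricle, differed by 0.03 (95% interval −0.24 to 0.30), with LPS replicate 5 again the lowest at 3036 CPM. Mylk3, the cardiac kinase that phosphorylates Myl2, was at 474 ± 61.9 and 466 ± 18.7 CPM (−0.02, −0.23 to 0.18).

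The atrial light chains Myl7 and Myl4 varied most within groups. Myl7 was at 0.729, 0.557, 10.3, 1.04 and 0.949 CPM in saline and 2.28, 6.29, 10.5, 21.6 and 5.88 CPM in LPS libraries. Myl4 was at 4.90, 1.89, 18.9, 1.16 and 1.602 CPM in saline and 5.04, 12.04, 18.2, 33.2 and 9.95 CPM in LPS libraries. Saline replicate 3 was high for both genes and every other saline library lay below every LPS library. With all libraries neither was called, with log2 fold changes of 1.77 ± 0.95 SE (adjusted p = 0.180) for Myl7 and 1.45 ± 0.86 SE (adjusted p = 0.222) for Myl4. Without saline replicate 3 both were called by edgeR, at 3.49 (adjusted p = 0.00375) and 2.69 (adjusted p = 0.0159), and with all libraries both were called by limma voom.

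Other atrial genes did not share 1 pattern. Sln, sarcolipin, which inhibits the calcium pump in atrial muscle, was at 0.104, 0.0557, 3.64, 0 and 0.237 CPM in saline and 0.553, 1.94, 3.74, 7.36 and 1.38 CPM in LPS libraries, so saline replicate 3 was again high and LPS replicate 4 the highest. Bmp10, an atrial growth factor, had 0 reads in every saline library and 3, 1, 0, 88 and 2 reads in LPS replicates 1 to 5, so it was high in LPS replicate 4 but had no read in saline replicate 3. The list of 12 atrial markers includes Myl4, Myl7 and Tbx5. Of 11 tested, 2 rose (Pam and Tbx5), 2 fell and 7 did not pass (36.4% called, against 39.9% of all tested genes). The markers' sum without Myl4 and Myl7 was 542 to 721 CPM in saline and 690 to 820 CPM in LPS libraries. Gja5, connexin 40, which endothelial cells also make, fell from 11.7 ± 3.03 to 2.03 ± 0.359 CPM, and Nr2f2, a nuclear receptor also found in endothelium, from 11.5 ± 3.09 to 3.01 ± 1.68 CPM. Pam, the most abundant, rose from 468 ± 54.8 to 596 ± 24.1 CPM, and Nppa, atrial natriuretic peptide, was at 46.2 ± 9.29 and 62.3 ± 24.3 CPM with no call. Pam differed by 0.08 under total count scaling and was not called there. The FPKM of Myl7 was 0.0347% to 0.679% of that of Myl2 in saline and 0.131% to 1.39% in LPS libraries. The share of atrial tissue in each library was not tested.

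**Figure D4:**
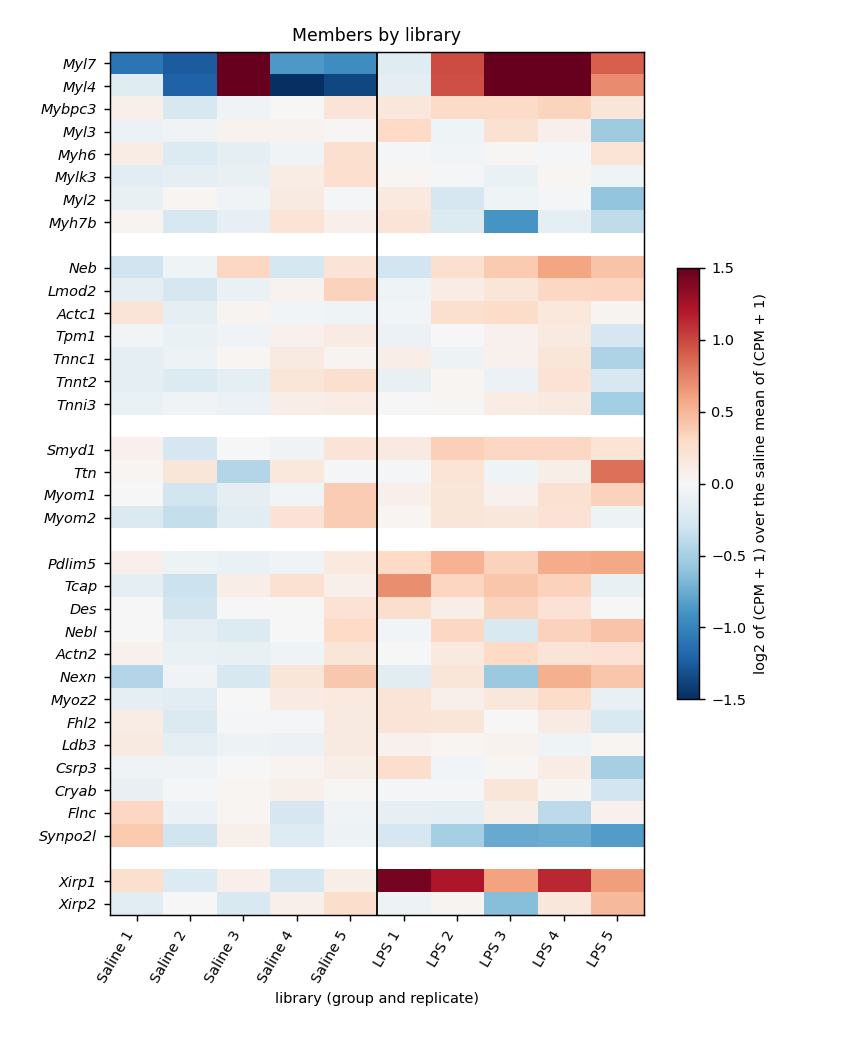
Log2 of the ratio of CPM + 1 of each member in each library to the mean of CPM + 1 over the 5 saline libraries. Members are grouped by place, and colours stop at 1.5 in either direction. Xirp1 is higher and Synpo2l mostly lower in LPS libraries. Myl7 and Myl4 lie above the saline mean in saline replicate 3 and in LPS replicates 2 to 5, and below it in LPS replicate 1.

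None of the 7 genes of the thin filament passed the test by edgeR, DESeq2 or limma voom, and by edgeR 0 had an unadjusted p under 0.05. Actc1, cardiac actin, was at 8650, 6837, 7818, 7380 and 7264 CPM in saline and 7359, 8985, 9201, 8462 and 7807 CPM in LPS libraries, and the groups overlapped. Its log2 fold change was 0.14 ± 0.09 SE (edgeR adjusted p = 0.232, 95% interval −0.05 to 0.33). In the authors' FPKM, which compare genes per length, Actc1 was the most abundant member in saline hearts at 4942 ± 448, followed by Myl2 at 2800 ± 184, Myh6 at 2535 ± 335 and Myl3 at 2268 ± 106.

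The 3 subunits of cardiac troponin lay close together. Tnnt2, which ties the complex to tropomyosin, differed by −0.03 (95% interval −0.27 to 0.21), Tnni3, the inhibitory subunit, by −0.03 (−0.27 to 0.21) and Tnnc1, the calcium-binding subunit, by −0.02 (−0.26 to 0.22). Tpm1, tropomyosin, which covers the myosin sites on actin at rest, was at 8929 ± 596 and 8808 ± 905 CPM (−0.02, −0.20 to 0.16). By total count scaling these 4 genes fell, and by RLE scaling their differences were between −0.01 and 0.01. The reads of Tnnc1 (216310 in all libraries) share their locus with Nisch on the other strand (23809 reads).

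Lmod2, leiomodin, which sets thin filament length by adding actin at the pointed end, was at 492 ± 82.7 and 557 ± 59.9 CPM (log2 fold change 0.18, adjusted p = 0.251) and was called without saline replicate 5 (0.28, adjusted p = 0.0362). Neb, nebulin, the thin filament ruler of skeletal muscle, was low at 4.45 ± 1.04 and 5.71 ± 1.41 CPM over its long transcript (0.36, adjusted p = 0.210).

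In titin and the M-band 1 of 4 genes rose and all 4 estimates were above 0 by TMM scaling and below 0 by total count scaling. Smyd1, a muscle methyltransferase and myosin chaperone partner found at the M-band, was at 524, 420, 504, 483 and 575 CPM in saline and 549, 643, 624, 622 and 579 CPM in LPS libraries. Only saline replicate 5 lay within the LPS range. Its mean rose from 501 ± 56.7 to 604 ± 38.3 CPM, a log2 fold change of 0.27 ± 0.09 SE (edgeR adjusted p = 0.0330). The call ended when saline replicate 2, 3 or 4 or LPS replicate 2 was left out (highest adjusted p = 0.0808), the difference by total count was −0.0033, and Krcc1 on the other strand shares part of its locus (8487 reads against 86646).

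Ttn, titin, was at 1864, 2071, 1340, 2038 and 1803 CPM in saline and 1806, 2104, 1749, 1945 and 3238 CPM in LPS libraries. LPS replicate 5 stood above all other libraries, and LPS replicate 2 lay just above the highest saline library, with the other LPS libraries within the saline range. The log2 fold change was 0.25 ± 0.17 SE (edgeR adjusted p = 0.282). Myom1, myomesin, which crosslinks thick filaments at the M-band, was at 1162 ± 210 and 1318 ± 107 CPM (0.18, adjusted p = 0.232) and was called without saline replicate 5 (0.30, adjusted p = 0.0209). Its relative Myom2 was at 731 ± 163 and 788 ± 66.7 CPM (0.11, adjusted p = 0.546).

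In LPS replicate 5 the deviation of the members varied with gene length. Its deviation from the LPS median (log2 of CPM + 1) had a Pearson correlation with log gene length of 0.67 over the 34 members, against −0.40 to 0.39 in the other 9 libraries, each set against the median of its own group. Over all 13864 tested genes the correlation was 0.33, against −0.21 to 0.16 in the others. These are correlations across genes of 1 library and carry no p. Of the 17 members shorter than 4414.5 bases, 10 were lower in LPS replicate 5 than in every other LPS library, and of the 17 longer members 6 were higher and 4 lower. Such counts occurred in saline libraries too, where replicates 1 and 2 were each the lowest of their group in 8 shorter members and replicate 5 the highest in 9 longer members. Its part in the values of Ttn, Myl2, Myl3, Tcap and the troponins was not tested. Without this library 5 members rose and 1 fell, the added gene being Tcap, where 41% of all tested genes were called, 19.1% upward and 21.9% downward.

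**Figure D5:**
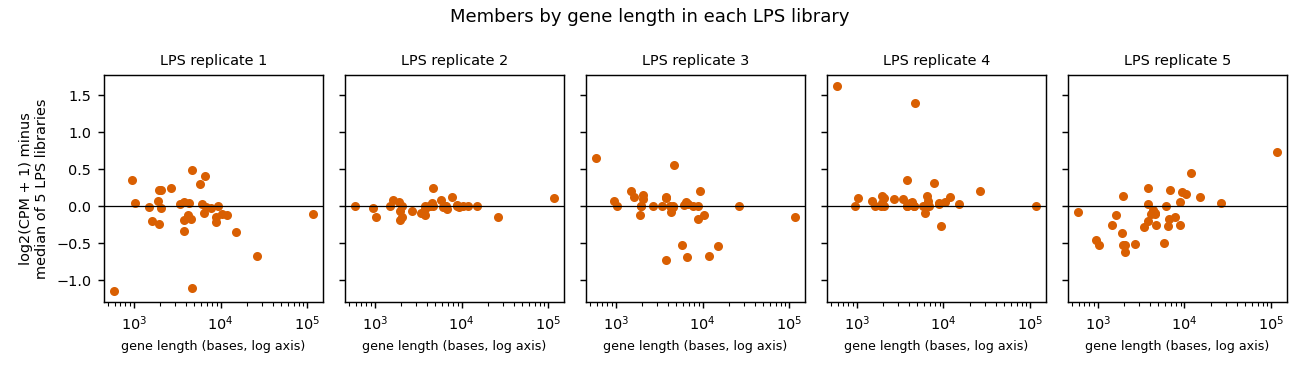
Deviation of each member from the median of the 5 LPS libraries (log2 of CPM + 1) against gene length in bases on a log axis, 1 panel per LPS library. In LPS replicate 5 short members lie mostly below 0 and titin, the longest, lies above all others.

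Regulators of contractile genes were read from a list of 20 names, of which 18 were found and tested. The list holds transcription factors and their cofactors as well as RNA-binding proteins that act on splicing. By edgeR 4 rose, of which Celf1 is an RNA-binding protein (0.26), and 3 fell. With 7 of 18 called (38.9%), the share was near the 39.9% of all tested genes. Hand2, a cardiac helix-loop-helix factor, rose from 22.3 ± 3.99 to 52.6 ± 8.61 CPM (log2 fold change 1.24, adjusted p = 9.17e-06). Gata4, a zinc finger factor of the heart, fell from 94.97 ± 19.03 to 55.6 ± 7.48 CPM (−0.77), Myocd, myocardin, a partner of serum response factor, fell by 0.41 on the log2 scale, and Mef2d fell by 0.37. Tbx5 and Tead1 rose by 0.45 each, but the calls were lost in 5 and 4 of the 10 fits that left out a library. Tbx5 (0.19), Tead1 (0.18) and Celf1 (−0.02) were not called under total count scaling. Srf itself (−0.23, adjusted p = 0.115), Mef2a (0.07) and Mef2c (0.21) did not pass by TMM scaling. With total count scaling Srf fell (−0.50), as did Nkx2-5, Rbm20, Rbm24 and Mbnl1, where 41.6% of all tested genes fell. Mef2a and Mef2c were not called there either.

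Beyond the 34 members, a list of 44 other sarcomere genes had 41 tested, of which 11 rose and 4 fell (median log2 fold change 0.12). Their share of calls, 36.6%, was near the 39.9% of all tested genes. These counts are by TMM scaling. Scaled by total count, the rises of Tpm4, Cfl2, Ankrd1, Hspb7 and Trim54 were not called. Myh7, Tnnt1, Tpm2, Synpo2, Speg, Alpk3, Smpx and Hspb8 fell there, where 41.6% of all tested genes fell. Tpm3, a tropomyosin of slow muscle and non-muscle cells, rose from 109 ± 23.3 to 220 ± 18.4 CPM (1.02). Pdlim1, of the same family as Pdlim5, rose from 62.0 ± 10.03 to 120 ± 11.1 CPM (0.95), and Myot, myotilin, by 0.81. Synm, synemin, an intermediate filament partner of desmin, fell from 11.8 ± 2.78 to 4.45 ± 1.28 CPM (−1.41), Pdlim3 fell by 0.78 and Lmod3, a leiomodin, by 0.56. PDLIM genes thus moved in both directions, under TMM and under total count scaling.

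Of 22 tested costamere genes, which link Z-discs to the cell membrane, 9 rose and 1 fell (median 0.20). That is 45.5% called, against 39.9% of all tested genes. Ank2, ankyrin-B, rose by 0.61, Dtna, dystrobrevin, by 0.48 and Utrn, utrophin, by 0.41. When scaled by total count, Ank2 was still called (0.34), whereas Dtna (0.21) and Utrn (0.14) were not. Ank2 was the only costamere gene that rose there, and Tln1, Parva, Lims1 and Svil fell besides Lims2. In that fit 41.6% of all tested genes fell. Lims2, an integrin adaptor also made by endothelial cells, fell from 63.2 ± 23.2 to 4.05 ± 1.17 CPM (log2 fold change −3.95, edgeR adjusted p = 1.82e-05). The endothelial markers Fabp4 and Cdh5 were at 404 ± 139 and 292 ± 59.5 CPM in saline and 141 ± 28.9 and 205 ± 26.9 CPM in LPS libraries, and the part of endothelial cells in the fall of Lims2 was not tested.

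Of 16 junction genes of the intercalated disc, 4 rose, 3 fell and 9 did not pass (median 0.06). With 43.8% called, the share was near the 39.9% of all tested genes. Scaled by total count, only Lrrc10 (0.74) and Cxadr (0.42) kept a called rise. There Cdh2, Ctnnb1, Dsp, Dsc2 and Tjp1 fell besides Afdn, Gja1 and Jup, where 41.6% of all tested genes fell. Lrrc10, a cardiac leucine-rich repeat protein, rose from 92.8 ± 30.9 to 185 ± 21.5 CPM (1.00), and Cxadr, a tight junction receptor, by 0.70. Afdn, afadin, an adherens junction scaffold, fell from 116 ± 35.9 to 32.7 ± 3.74 CPM (−1.83). Gja1, connexin 43, the main gap junction protein of the ventricle, fell from 413 ± 37.8 to 254 ± 31.7 CPM (−0.70, adjusted p = 9.51e-05), and Jup, plakoglobin, of desmosomes and adherens junctions, from 198 ± 29.6 to 126 ± 11.2 CPM (−0.66). Afadin, connexin 43 and plakoglobin did not overlap between the groups.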

How the data were processed

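Whole hearts were flash frozen, their RNA was extracted with Trizol and sequenced as TruSeq libraries (Illumina), per the labels' protocols. The authors deposited raw read counts per gene for 54532 Ensembl identifiers in 10 libraries. Bowtie 0.12.2 and mm9 are named, without a role, in the submitters' processing notes. No counting tool, annotation or strand setting is given in the sources used here, so reads of overlapping genes cannot be told apart. All 34 members were found in GENCODE M21 (GRCm38) with the same start and end, and coordinates are given as GRCm38. FPKM columns deposited by the authors in the same table were used only to compare levels per length. A further 20 columns of per-sample values in other deposited tables, whose LPS columns are named for 3 h, were not used; the labels give 24 h. The authors' Reactome table gives counts of differential genes and p-values per term and is quoted as theirs.

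Counts were analysed in R 4.3.3 with edgeR 4.0.16 (filterByExpr with minimum count 10 and minimum total count 15, TMM scaling, quasi-likelihood F-test with robust dispersions, no covariate). This left 13864 genes, over which Benjamini-Hochberg adjustment was made. Genes past 0.05 "rose" or "fell". Standard errors and 95% intervals were derived from the F statistic. Alternatives were scaling by RLE, by upper quartile, by total count, with the 20 most abundant genes left out, and to the cardiomyocyte markers (chosen after seeing the data), no filter on low counts, 1 CPM in 5 libraries, DESeq2 1.42.0, limma 3.58.1 voom, a replicate block and leaving out each library. The procedure was tested on simulated data. The members and gene lists were chosen with earlier results of these data known. All 34 members are named; from the lists of related genes the 3 largest rises and the 3 largest falls past the threshold, and from each marker list the 2 most abundant genes. Of the marker lists, only those that the text names with values are described in full. A few other genes are named to account for a count and were picked with their values known. A gene that the rule takes is left out of this text.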

Additional observations from a re-analysis of the deposited data

Results flagged for a closer look

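Each member's libraries were searched for a value far from the other 4 of its group (gap to the nearest value, as a share of the whole range, above the critical value of 0.71 for 5 samples). Of 68 groups tested, 5 were flagged, and chance flags about 1 in 20, which is 3.4 of 68. In LPS replicate 5, Ttn was the highest of its group at 3238 CPM, where the others lay between 1749 and 2104 CPM. Myh6 was the highest there too, at 18730 CPM against 15675 to 16348 CPM. Tnni3 was the lowest in the same library, at 2394 CPM against 3396 to 3737 CPM. In saline replicate 3, Myl4 was at 18.93 CPM, where the other saline libraries lay between 1.16 and 4.90 CPM, and Myl7 was at 10.25 CPM against 0.557 to 1.04 CPM.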

How the results depend on the processing

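The number of members that rose was 4 with all libraries and 2 to 6 when 1 library was left out (2 without saline replicate 2), and 1 member fell in each of those fits. Over all tested genes 2277 to 2967 rose and 2355 to 3241 fell. By upper quartile scaling 2 members rose and 2 fell, and 4407 of all genes fell. By total count scaling 1 member rose and 12 fell, 1712 of all genes rose and 5764 fell. Scaled to the cardiomyocyte markers, 2 members rose, 4 fell and 4439 of all genes fell. That scaling divides by the summed reads of the markers, so a rise among them lowers the estimates of other genes. Atp2a2, itself called as risen by TMM (0.28), was the most abundant marker at a mean of 12557 CPM. Total count scaling reversed Myh6 (−0.23), Mybpc3 (−0.018), Smyd1 (−0.0033) and Ldb3 (−0.25), the direction being counted as reversed where a gene was called in either fit. RLE scaling, DESeq2 and scaling without the 20 most abundant genes gave 5 rises, adding Tcap, and limma voom 6, adding Myl4 and Myl7. Neither filter on low counts changed the member counts. The cause of these differences was not tested. The replicate numbers, fitted as a replicate block, left 2 members that rose and 1 that fell; deviations of libraries with the same number correlated at −0.10 to 0.24, and 1 of 5 saline libraries correlated best with its own number, so the numbers were not taken to pair the samples. Depth limits the 2 members with under 1000 reads in all, Myl7 and Neb.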

Other observations

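The authors' deposited table of Reactome terms lists Striated Muscle Contraction with 6 differential genes of 31, of which 4 were up (Tpm4, Mybpc3, Mybpc2 and Tcap) and 2 down (Vim and Tmod2), at a p-value of 0.989. The wider term Muscle contraction has 48 differential genes of 161 in the authors' deposited table, 20 up and 28 down, at a p-value of 0.974. Of the smooth muscle and pericyte markers, 13 were tested by edgeR, 6 fell and none rose, while Rgs5 (846 ± 114 CPM in saline and 695 ± 111 CPM in LPS libraries) and Acta2 (149 ± 40.3 and 137 ± 37.5 CPM) did not pass. Of 10 fibroblast markers 2 fell and none rose, with Gsn at 1657 ± 164 and 1629.6 ± 190 CPM and Dcn at 696 ± 51.1 and 721 ± 96.0 CPM. Of 10 tested leukocyte markers 3 rose and 2 fell, among them Lyz2 from 297 ± 50.6 to 209 ± 46.4 CPM, a call lost in 3 of the fits that left out a library, while Cd74 was at 185 ± 24.4 and 203 ± 34.2 CPM. Called were 46.2% of smooth muscle and pericyte, 20% of fibroblast and 50% of leukocyte markers tested, against 39.9% of all tested genes. None of the 5 erythroid markers passed by edgeR, DESeq2 or limma voom (unadjusted p under 0.05 in 0 by edgeR and 1 by DESeq2), with Hbb-bs at 297 ± 82.0 and 310 ± 117 CPM and Hba-a1 at 161 ± 56.3 and 197 ± 46.4 CPM.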
